A study of Mus musculus with 6 samples.

Results

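Slc7a11, Gclc, Gsta2 and Asns are 4 genes that cells raise when cystine, glutathione or amino acids run short. They were chosen by name, with earlier results of these data known, as those of the group that could be read in the count files by genome position. They are 4 of 9519 genes read this way. All 4 had enough counts to be tested, among 5246 genes in all. The libraries were made from kidney of C57BL/6 mice, a standard inbred strain, at postnatal day 21. Of the 6 libraries, 3 carry the diagnosis healthy and 3 acute renal failure (ARF), a rapid loss of kidney function; their titles say control and treat. The labels name no agent, genotype or procedure that brought the renal failure about, and leave unsaid whether each library had its own mouse. A p-value therefore weighs a difference only against the spread of these libraries, which may be technical. All values below are healthy-labelled or ARF-labelled, in the order of the replicate numbers in the titles.

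Slc7a11 encodes the light chain of the cystine/glutamate exchanger, which brings cystine into the cell. Cystine is reduced to cysteine, and Gclc encodes the catalytic subunit of glutamate-cysteine ligase, which performs the rate-limiting step from cysteine to glutathione. Gsta2 encodes an alpha-class glutathione transferase, which joins glutathione to electrophiles and is prominent in the proximal tubule. Asns encodes asparagine synthetase, which makes asparagine from aspartate and glutamine. Slc7a11 and Asns are textbook targets of ATF4, the transcription factor made when the eIF2 kinases sense missing amino acids or misfolded protein. Slc7a11, Gclc and Gsta2 are textbook targets of NRF2, the factor released from KEAP1 by oxidants.

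The elements through which these factors act are short, and RefSeq promoter windows (GRCm38.p6, from 250 bases before to 50 after the annotated start) were available for 3 of the 4 genes, Slc7a11, Gsta2 and Asns. Each window was searched on both strands for TGATGNAA, the amino acid response element bound by ATF4 with C/EBP proteins, for TGACNNNGC, the core of the antioxidant response element bound by NRF2, and for TGAGTCA, the AP-1 element. A TGAGTCA site preceded by GC also holds the antioxidant core on the other strand, so those 2 can overlap. The stretches from 115 to 16 bases before the start are shown for Slc7a11 and Asns because they hold the amino acid response matches, in capitals, 5′ to 3′ on the gene's own strand (the minus strand, chr3:50443629-50443728 and chr6:7693225-7693324).
Slc7a11: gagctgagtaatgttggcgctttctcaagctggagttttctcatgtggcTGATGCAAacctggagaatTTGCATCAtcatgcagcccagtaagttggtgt
Asns: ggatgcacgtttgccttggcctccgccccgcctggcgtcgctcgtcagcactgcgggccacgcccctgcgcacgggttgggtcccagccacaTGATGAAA

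The Slc7a11 window holds the element 2 times, once on each strand and facing each other, with first bases 66 and 47 bases before the start. Among all 32851 windows, 3.97% hold at least 1 match and 0.07% hold 2 or more. The Asns window holds 1 match, with its first base 23 bases before the start, and 1 antioxidant core further upstream, a motif held by 12.4% of all windows. The Gsta2 window holds none of the 3 motifs, and the Slc7a11 window no antioxidant core and no AP-1 element; this says only that these letters are not in these windows. A match is a run of letters and was not tested as a binding site.

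The genes were read through different parts of their transcripts, because the intervals of the deposited rows do not follow GRCm38 genes and a gene was taken from the row that lies on its exons. Asns (ENSMUSG00000029752.12, chr6:7675169-7693254, minus strand, GRCm38) was read through all of its 2162 exon bases, in a row that also carries its own name. Slc7a11 (ENSMUSG00000027737.10, chr3:49892526-50443614, minus strand) was read through 1948 of 9848 exon bases in a row of its own name, of which 62 are coding and 1886 belong to the 3′ UTR. Gclc (ENSMUSG00000032350.9, chr9:77754535-77794485, plus strand) was read through its first 425 of 3423 exon bases, 275 of 5′ UTR and 150 coding, in a row named Gm47818. Gsta2 (ENSMUSG00000057933.10, chr9:78331018-78355788, minus strand) was read through 52 coding bases of 870 exon bases, in a row named Cgas. Fragments touching a short stretch are counted whole, so levels are compared between libraries and not between genes.

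The Gsta2 stretch needs a closer look, because Gsta2 has near-identical copies. Its letters (chr9:78338645-78338696, minus strand) are printed beside the best matching stretch in 2 relatives, from the GENCODE M21 transcripts.
Gsta2: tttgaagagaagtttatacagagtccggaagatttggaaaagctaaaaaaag
Gsta1: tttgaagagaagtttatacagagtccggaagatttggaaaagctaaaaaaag
Gsta3: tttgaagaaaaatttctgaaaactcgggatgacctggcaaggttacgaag
Gsta1 is identical over the whole stretch, while Gsta3 is 18 edits away. All 23 runs of 30 bases in the stretch also occur in Gsta1, Gm10639 or Gm3776, so fragments could be told apart only by bases outside it. Gsta2 is therefore uncertain throughout and stands for the reads placed at its exon. Of the runs of 30 bases in the transcript with the most counted bases, 0 occur in transcripts of other genes for Gclc and for Asns (2016 bases of its longest-read transcript), and 5.17% do for Slc7a11.

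Depth and labels touch every result. Total counts were 2873370 to 5710010 in the healthy-labelled and 5455886 to 6191479 in the ARF-labelled libraries. Genes that rise in damaged tubules were lower in the ARF-labelled libraries: 7 of 8 tested, with 0 higher, and a summed level of 2124 to 2900 CPM (counts per 1000000 counts of the library), against 11010 to 17070 in the healthy-labelled ones. All 10 immediate early genes tested, whose transcripts appear soon after a stimulus, were lower as well (median log2 fold change -2.48). The direction named by the labels is thus given here as labelled only. Kidney markers were present: 13 of 32 proximal tubule genes were read, none at 0. Their summed level was 8330 to 13010 CPM in the healthy-labelled and 4384 to 5630 CPM in the ARF-labelled libraries, with 8 lower and 2 higher. That sum includes Ass1 and Slc7a13, which are also described below. Principal cell genes (4 of 4 tested, 3350 to 4069 against 9488 to 11310 CPM in sum) and intercalated cell genes (9 of 9, 1281 to 1587 against 5218 to 6334 CPM) were higher. Macrophage genes (5 of 7 lower, 53.9 to 109 against 31.2 to 40.5 CPM) and neutrophil genes (2 of 2 lower, 46.6 to 155 against 3.08 to 6.95 CPM) were lower, while most of the neutrophil list (2 of 10 read) was out of reach. Over all genes tested, 24.9% were lower and 25.1% higher. In whole tissue, fewer cells of a type and less RNA per cell cannot be told apart. The part of cell makeup in the results below was not tested.

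Each of the 4 genes was lower in the ARF-labelled group (edgeR quasi-likelihood test, Benjamini-Hochberg adjusted over all genes tested, threshold 0.05). Of all 5246 genes, 24.9% were lower, 25.1% higher and 50.0% called in either direction by that test, so a call alone says little here. The sizes ranged widely. The log2 fold changes were -2.59 for Slc7a11, -1.60 for Asns, -1.55 for Gsta2 and -0.42 for Gclc, set against a median of 0.01 over all genes. Only 2.42% of the tested genes had a log2 fold change as low as that of Slc7a11, whereas 29.0% were as low as Gclc. For Slc7a11, Gsta2 and Asns every ARF-labelled library was below every healthy-labelled one in CPM, as in 22.4% of all tested genes; in 40.0% every ARF-labelled library was above.

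**Figure D1:**
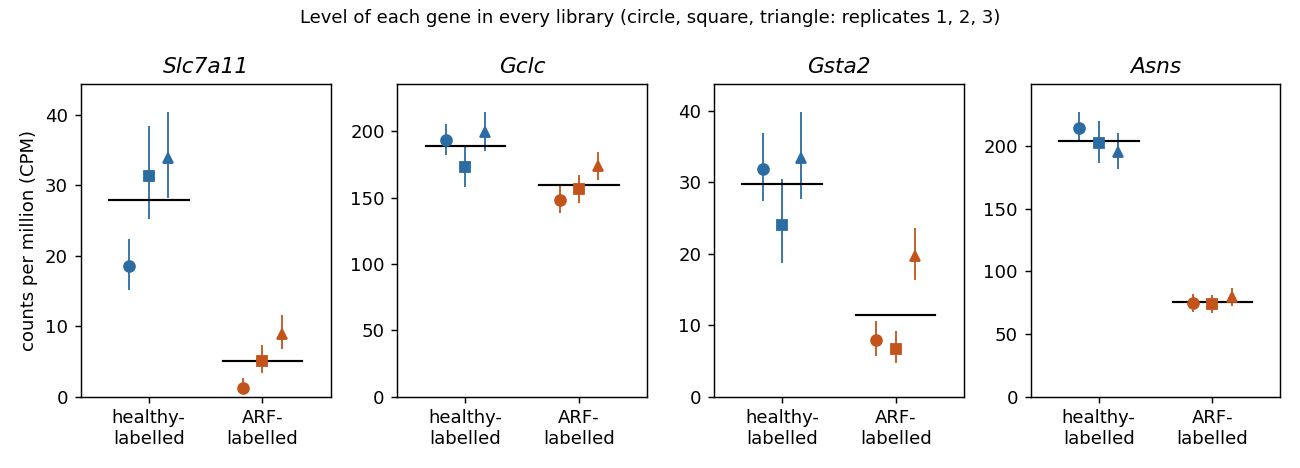
Level of Slc7a11, Gclc, Gsta2 and Asns in CPM (vertical axis, from 0, own scale per gene) in the 3 healthy-labelled (blue) and 3 ARF-labelled (orange) libraries. Points are libraries with the exact Poisson 95% interval of the count, and the line is the group mean; Asns forms 2 tight groups, near 204 and 75.9 CPM, while Slc7a11 and Gsta2 spread widely in the ARF-labelled group.

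Asns, the asparagine-making enzyme and the only one of the 4 read over its whole transcript, stood at 215, 203 and 196 CPM in the healthy-labelled libraries. In the ARF-labelled libraries it stood at 74.4, 73.8 and 79.5 CPM. The groups lie far apart and each is narrow, with a coefficient of variation of 4.77% and 4.08%. The means were 204 ± 9.76 and 75.9 ± 3.09 CPM (SD, n = 3), a ratio of 2.69. After TMM scaling, edgeR's correction for library makeup, the log2 fold change was -1.60 (SE 0.10, edgeR adjusted p = 1.13e-05). That leaves 32.9% of the healthy-labelled level. Log2 fold changes of the other genes are also after TMM scaling, so they can differ from ratios of CPM means. Asns kept its call in all 15 alternative fits, between -1.66 and -1.43.

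Slc7a11, the cystine importer, stood at 18.6, 31.3 and 33.9 CPM in the healthy-labelled libraries. In the ARF-labelled libraries it stood at 1.28, 5.07 and 8.88 CPM, from 7, 28 and 55 counts. ARF-labelled replicate 1 was the lowest, and its counting interval of 0.516 to 2.64 CPM does not reach that of replicate 3, 6.69 to 11.6 CPM. The spread within that group is thus wider than counting error, with the highest library 6.92 times the lowest. The means were 27.9 ± 8.20 and 5.08 ± 3.80 CPM (SD, n = 3), a log2 fold change of -2.59 (SE 0.50, edgeR adjusted p = 0.00312). The size moved to -3.25 without ARF-labelled replicate 3, 1.58 times further on the fold scale, and to -2.13 without ARF-labelled replicate 1. The call was kept in every alternative fit.

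Gsta2, read through the stretch it shares with Gsta1, stood at 31.9, 24.0 and 33.3 CPM in the healthy-labelled libraries. In the ARF-labelled libraries it stood at 7.88, 6.70 and 19.7 CPM. ARF-labelled replicate 3 lay near the healthy-labelled range, the other two well below. The means were 29.7 ± 5.01 and 11.4 ± 7.19 CPM (SD, n = 3), a log2 fold change of -1.55 (SE 0.37, edgeR adjusted p = 0.00820). With 1 library left out, the size ranged from -2.19 (ARF-labelled replicate 3 dropped) to -1.28 (ARF-labelled replicate 2 dropped). The call was kept each time, at an edgeR adjusted p of up to 0.0308. Gsta1, read through another stretch of 133 bases, had 16, 4 and 6 counts in the healthy-labelled and 1, 0 and 9 counts in the ARF-labelled libraries. That was too few to be tested, and ARF-labelled replicate 3 was again the highest of its group.

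Gclc, the rate-limiting enzyme of glutathione synthesis, stood at 194, 173 and 199 CPM in the healthy-labelled libraries. In the ARF-labelled libraries it stood at 148, 157 and 174 CPM. The groups met in CPM, since ARF-labelled replicate 3 was level with healthy-labelled replicate 2. After TMM scaling (edgeR's correction for library makeup) they did not overlap, with 162 CPM as the highest ARF-labelled and 181 CPM as the lowest healthy-labelled value. In unscaled CPM 62.4% of all tested genes did not overlap in either direction, and the share after TMM scaling was not counted. The log2 fold change after that scaling was -0.42 (SE 0.11, edgeR adjusted p = 0.0138), which leaves 74.9% of the healthy-labelled level. The unscaled CPM means differed 1.18 times. The call was lost with scaling by total count (-0.24, adjusted p = 0.0884) and without ARF-labelled replicate 1 (-0.35, adjusted p = 0.0585).

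ARF-labelled replicate 3 was the highest of its group for each of the 4 genes in CPM, by a little in Asns and Gclc and by much in Slc7a11 and Gsta2. The share of all tested genes for which that library is the highest of its group was not counted. In the healthy-labelled group replicate 3 was the highest for Slc7a11, Gclc and Gsta2 and the lowest for Asns.

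The ratio of 2 genes within a library does not depend on how libraries are scaled, so it shows unequal change directly. Gclc to Asns was the most even: the log2 ratio was -0.15, -0.23 and 0.03 in the healthy-labelled and 1.00, 1.08 and 1.13 in the ARF-labelled libraries, a shift of 1.19 towards Gclc. Slc7a11 to Gclc went from -2.80 ± 0.51 to -5.32 ± 1.29 (SD, n = 3), and Gclc to Gsta2 from 2.67 ± 0.15 to 3.96 ± 0.73. In these 3 pairs the groups did not overlap, which with 3 against 3 libraries always gives a two-sided exact permutation p of 0.1. That is the smallest p possible (0.2 after Benjamini-Hochberg adjustment over 6 pairs). How many pairs of other genes do not overlap was not counted. Without ARF-labelled replicate 1, which has 7 Slc7a11 counts, the shift of Slc7a11 to Gclc was -1.81 in place of -2.52. The ratios of Slc7a11 to Gsta2 and of Slc7a11 to Asns overlapped between groups (exact permutation p = 0.2, adjusted 0.24). Their shifts of -1.23 and -1.34 became -0.64 and -0.58 without that replicate. Gsta2 to Asns differed by -0.10 with groups that overlapped (exact permutation p = 0.9). At this number of libraries such a p does not show that Gsta2 and Asns changed alike.

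**Figure D2:**
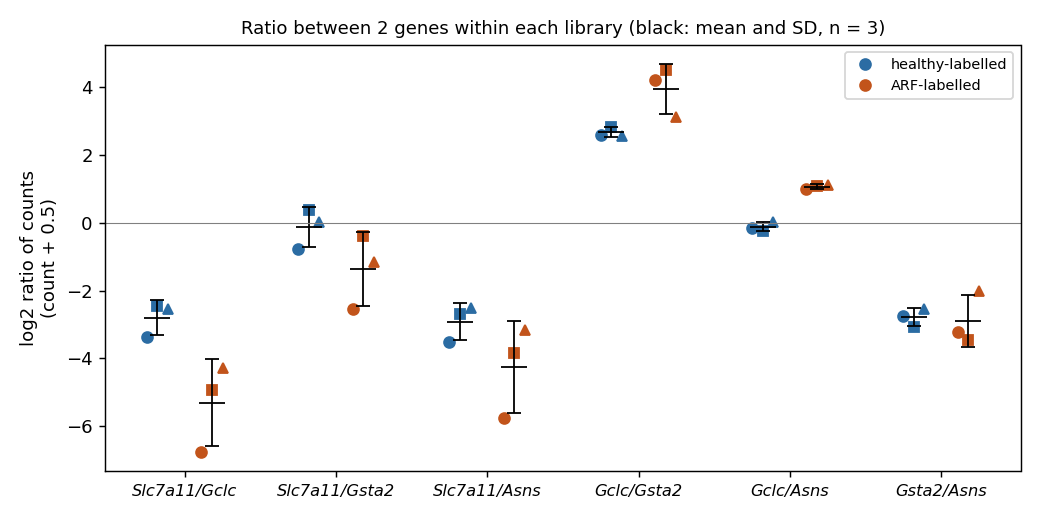
Log2 ratio of the counts of 2 genes within each library (vertical axis, 0.5 added to each count) for the 6 pairs, with healthy-labelled libraries in blue, ARF-labelled in orange and the mean and SD (n = 3) in black. The Gclc/Asns groups are narrow and apart, near -0.12 and 1.07, while the Gsta2/Asns groups overlap.

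Of 21 genes of cystine and cysteine supply, 6 were tested beside Slc7a11. Of these 2 were lower and 0 higher, with a median of 0.01, next to 24.9% lower over all genes (0 higher also at an unadjusted p under 0.05 and by DESeq2). Slc3a2, which encodes the heavy chain that carries the Slc7a11 exchanger to the membrane, stood at 238, 259 and 264 CPM in the healthy-labelled libraries. In the ARF-labelled ones it stood at 62.0, 64.3 and 80.3 CPM. Both chains of the exchanger were thus lower in each ARF-labelled library, Slc3a2 with a log2 fold change of -2.06 (SE 0.12, edgeR adjusted p = 1.13e-05). Slc3a2 also partners other amino acid carriers. Slc7a13, a cystine and acidic amino acid carrier of the late proximal tubule, was lower too (-1.35, SE 0.35, edgeR adjusted p = 0.0126). Cth, the enzyme that makes cysteine from cystathionine, was not called (0.07, edgeR adjusted p = 0.843), nor were Mpst, Csad and Mfsd12. With scaling by total count, 2 of the 7 tested genes of the whole list were called higher and 3 lower. Slc7a11 was among the lower ones there (log2 fold change -2.42).

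Beside Gclc, 5 further genes of glutathione synthesis, recycling and breakdown were tested out of a list of 26. Of these 3 were lower and 0 higher (1 of the list at an unadjusted p under 0.05, 0 by DESeq2), beside 24.9% lower and 25.1% higher over all genes. Gsr, glutathione reductase, which restores glutathione from its oxidised form, stood at 201, 157 and 175 CPM in the healthy-labelled libraries and at 102, 89.2 and 121 CPM in the ARF-labelled ones. The groups did not overlap (log2 fold change -0.95, SE 0.14, edgeR adjusted p = 0.000804), and the call held in all 15 alternative fits. Glutaredoxin (Glrx, -0.78, SE 0.27) and the NADPH-producing isocitrate dehydrogenase Idh1 (-0.71, SE 0.23) were lower less securely. Glrx lost its call without healthy-labelled replicates 1 and 3 and ARF-labelled replicates 1 and 3 (edgeR adjusted p = 0.12, 0.0732, 0.117 and 0.105), and 7.61% of its runs of 30 bases occur in pseudogenes. Idh1 lost it without healthy-labelled replicate 3 and ARF-labelled replicates 2 and 3 (edgeR adjusted p = 0.118, 0.0683 and 0.0931). With scaling by total count the whole list had 1 gene lower, Gsr, and 1 higher.

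Of 12 glutathione transferase genes tested beside Gsta2, 3 were higher and 1 lower, with a median of 0.32, next to 25.1% higher and 24.9% lower over all genes. The theta-class gene Gstt3 stood at 43.1, 30.3 and 39.9 CPM in the healthy-labelled libraries. In the ARF-labelled ones it stood at 180, 222 and 186 CPM, and the groups lie far apart (log2 fold change 2.19, SE 0.16, edgeR adjusted p = 2.92e-05). Gstt1 (1.37, SE 0.21) and the mu-class gene Gstm2 (1.27, SE 0.20) were higher as well. The pi-class gene Gstp3 was lower (-1.38, SE 0.37, edgeR adjusted p = 0.0144) and without healthy-labelled replicate 3 had a log2 fold change of -1.21 that was not called (edgeR adjusted p = 0.0566). Gstm2 shares 16.3% of its runs of 30 bases with other transcripts, among them Gstm6, and Gstp3 1.56% with other pi-class copies, so both are uncertain.

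**Figure D3:**
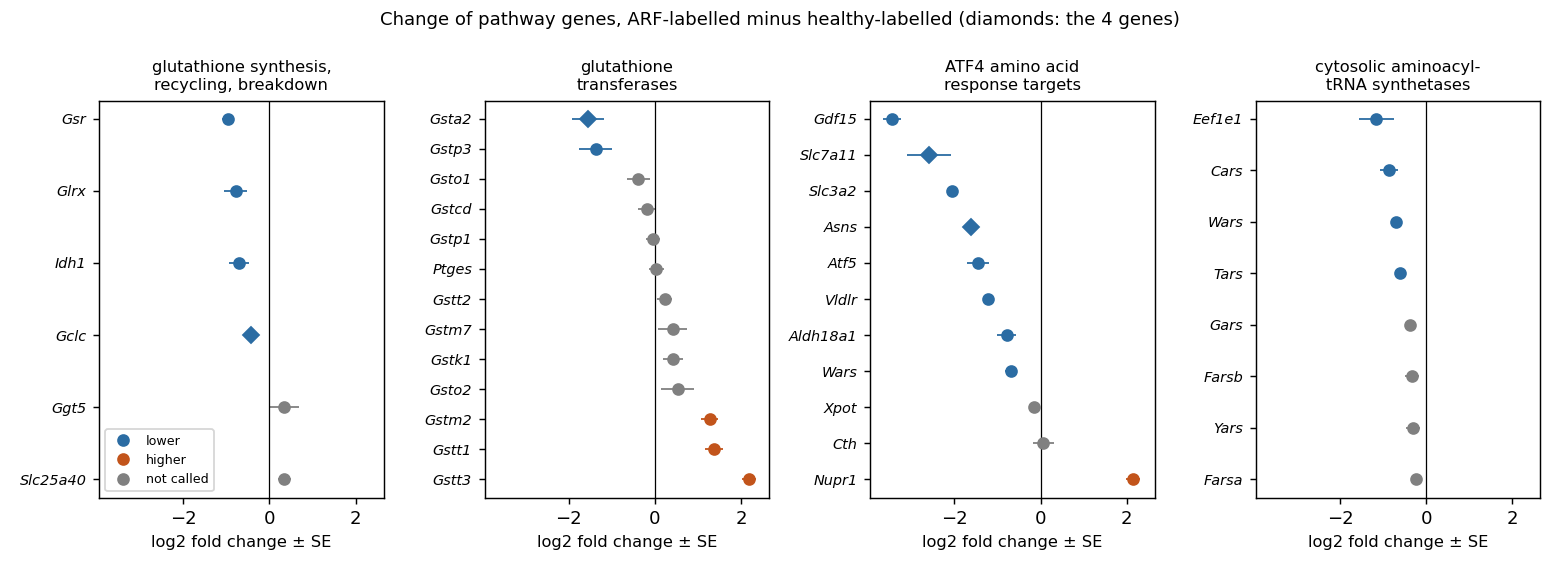
Log2 fold change (horizontal axis, ARF-labelled minus healthy-labelled, with SE) of every tested gene of 4 lists, blue where lower, orange where higher and grey where not called at an adjusted p under 0.05. Diamonds are the 4 genes described here. The transferases lie on both sides of 0, from Gsta2 at -1.55 to Gstt3 at 2.19. All 8 tested genes of the aminoacyl-tRNA synthetase list, which includes the complex member Eef1e1, lie below 0.

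Of 43 NRF2 targets 18 were tested, Slc7a11, Gclc and Gsta2 among them; 9 were lower and 1 higher. Without those 3 there were 6 lower and 1 higher of 15, with a median of -0.10, beside 24.9% lower and 25.1% higher over all genes. Akr1b8, an aldo-keto reductase, stood at 203, 181 and 145 CPM in the healthy-labelled and, on the ARF-labelled side, at 27.5, 20.5 and 30.7 CPM (log2 fold change -2.93, SE 0.18, edgeR adjusted p = 1.21e-05). The groups did not meet; 25.2% of its runs of 30 bases occur in the copy Gm5649, so it is uncertain. Ephx1, microsomal epoxide hydrolase and another listed target, went the other way, from 223, 128 and 122 CPM to 799, 698 and 597 CPM (log2 fold change 1.97, SE 0.25, edgeR adjusted p = 0.000327). Prdx1, a peroxiredoxin, was not called at -0.02 (edgeR adjusted p = 0.945). NRF2 itself (Nfe2l2), Keap1, Gclm, Nqo1, Hmox1 and Txnrd1 could not be read by position.

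Among 9 tested regulators of NRF2, 3 were higher and 2 lower (median 0.21), beside 25.1% higher and 24.9% lower over all genes. The related factors Nfe2l3 (log2 fold change 1.13, SE 0.14) and Nfe2l1 (0.38, SE 0.12) and the ubiquitin ligase subunit Rbx1 (0.76, SE 0.15) were higher; Rbx1 shares 12.4% of its runs of 30 bases with a pseudogene. The repressor Bach2 (-1.19, SE 0.30) and Cul3 (-0.53, SE 0.14), the ligase scaffold bound by KEAP1, were lower. Cul3 lost its call without ARF-labelled replicate 1 (edgeR adjusted p = 0.0535). Nfe2l1 lost its call without healthy-labelled replicates 1 and 3 and ARF-labelled replicates 2 and 3 (edgeR adjusted p = 0.0705, 0.116, 0.0676 and 0.0741).

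Peroxide-handling and ferroptosis genes were mostly not called, while 50.0% of all genes were called in either direction. Of 4 tested peroxidase, peroxiredoxin and superoxide dismutase genes, Sod3, the extracellular superoxide dismutase, was lower (-1.64, SE 0.19) and the others were not called (list median -0.14, and 0.04 with scaling by total count). Of 6 tested genes of ferroptosis and iron handling, Dhodh, a mitochondrial enzyme of pyrimidine synthesis, was higher (1.04, SE 0.17). By edgeR 0 were lower after adjustment, 2 at an unadjusted p under 0.05 and 1 by DESeq2 (list median -0.28). Gpx4 and Chac1 could not be read.

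ATF4 targets were mostly lower. Of 46 listed 11 were tested, 8 lower and 1 higher, with a median of -1.21. Without Asns and Slc7a11 there were 6 lower and 1 higher of 9, with a median of -0.79, beside 24.9% lower and 25.1% higher over all genes. The counts were 7 or 8 lower and 1 higher in each of the alternative fits. Gdf15, a stress cytokine, had the lowest value (-3.45, SE 0.20), and Slc3a2 above is a listed target as well. Gdf15 is also among the genes of damaged tubules counted above, so that result and this list are not separate. The factor Atf5 stood at 15.9, 28.2 and 26.7 CPM in the healthy-labelled and, on the ARF-labelled side, at 11.9, 8.69 and 8.24 CPM (log2 fold change -1.45, SE 0.26, edgeR adjusted p = 0.00201). Those groups are near each other but apart. Vldlr, a lipoprotein receptor, fell to a narrow band, from 167, 132 and 162 CPM to 77.7, 71.3 and 75.9 CPM (log2 fold change -1.21, SE 0.12, edgeR adjusted p = 0.000102). The exception Nupr1, a small stress-induced chromatin protein, rose from 65.0, 73.1 and 57.6 CPM to 304, 382 and 287 CPM (log2 fold change 2.15, SE 0.15, edgeR adjusted p = 2.56e-05). Atf4 itself, Ddit3, Trib3 and Psat1 could not be read.

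The amino acid response element was found in the windows of 13 of the 38 listed ATF4 targets that have one, beside 4.51% of all genes with a window. Such targets are partly known from this element, so the share is a description. Among the 9 tested genes of the list with a window, Asns, Slc7a11, Vldlr and Nupr1 hold it. The matches of Vldlr and Nupr1, in capitals, are shown because 1 of these genes was lower and the other higher. They are given on the gene's strand, chr19:27216809-27216838 (plus) and chr7:126625562-126625591 (minus) in GRCm38.p6, with the match starting 200 and 110 bases before the start.
Vldlr: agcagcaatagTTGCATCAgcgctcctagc
Nupr1: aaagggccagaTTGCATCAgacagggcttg
Both carry the same 8 letters as the second Slc7a11 match, on the same strand relative to the gene. The letters therefore occur in a gene that was lower and in one that was higher.

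**Figure D4:**
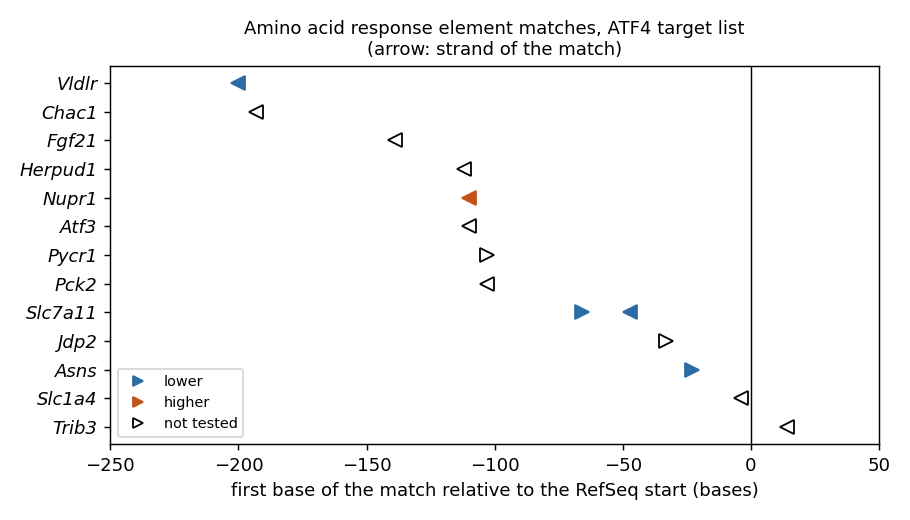
Position of TGATGNAA matches relative to the RefSeq start (horizontal axis, bases) in the windows of the 13 listed ATF4 targets that hold one, with arrows for the strand. Filled symbols are tested genes, blue where lower and orange where higher, and open symbols were not tested; Slc7a11 is the only gene drawn with 2 matches, facing each other.

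Upstream of ATF4, 9 genes of the eIF2 kinase pathway were tested, with 3 lower, 0 higher and a median of -0.22. Over all genes 24.9% were lower and 25.1% higher. The eIF2 subunits Eif2s2 (-0.95, SE 0.16) and Eif2s1 (-0.86, SE 0.12) were lower. For Eif2s1, 5.18% of its runs of 30 bases occur in transcripts of other genes. Eif2b3, a subunit of the exchange factor, was lower (-0.63, SE 0.22) but lost its call whichever library was left out, with an edgeR adjusted p of 0.0569 (without ARF-labelled replicate 2) to 0.128 (without ARF-labelled replicate 3). The kinase that senses misfolded protein, Eif2ak3, was not called at -0.28 (edgeR adjusted p = 0.0510), nor Eif2ak4, which senses uncharged tRNA, at 0.06 (edgeR adjusted p = 0.742). At an unadjusted p under 0.05 edgeR counted 4 lower and 0 higher, and DESeq2 called 2 lower and 0 higher. With scaling by total count 2 of the list were called higher and 2 lower. When all overlapped exon bases had to be in 1 gene, Eif2s1 dropped out. Of the 8 genes then tested, 1 was lower and 0 higher (median -0.08).

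Genes of cytosolic aminoacyl-tRNA synthetases and their complex, a group that ATF4 also drives, were all below 0 in log2 fold change (8 of 8, median -0.49). Of all 5246 genes 2585 were below 0. Beside 24.9% lower over all genes, 4 of the 8 were called lower (5 at an unadjusted p under 0.05, with 0 higher either way and by DESeq2). The 4 were Cars (-0.86, SE 0.21), Wars (-0.69, SE 0.13), Tars (-0.61, SE 0.12) and the complex member Eef1e1 (-1.15, SE 0.42). Cars was read through 51 bases. Wars is also on the list of ATF4 targets above, so these lists are not separate. Eef1e1 lost its call whichever library was left out, with an edgeR adjusted p of 0.0529 (without healthy-labelled replicate 2) to 0.177 (without healthy-labelled replicate 3).

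Enzymes around asparagine, aspartate and glutamine were mostly lower with Asns. Of 31 listed 16 were tested, 11 lower and 1 higher (median -0.70). Without Asns there were 10 lower and 1 higher of 15 (median -0.63), beside 24.9% lower and 25.1% higher over all genes. Ass1, which joins aspartate to citrulline and is a proximal tubule enzyme, was lower (-2.05, SE 0.20), but 48.3% of its runs of 30 bases also occur in Gm5424, so it is uncertain. Aspa, which splits acetylaspartate, was lower (-1.45, SE 0.25). Asrgl1, an asparaginase that breaks asparagine down, was the 1 gene that was higher. It stood at 8.93, 7.66 and 6.61 CPM in the healthy-labelled and at 32.3, 36.7 and 27.9 CPM in the ARF-labelled libraries, with wide space between the groups (log2 fold change 1.87, SE 0.19, edgeR adjusted p = 0.000121). The asparagine-making enzyme and this asparagine-degrading one thus moved in opposite directions in these libraries. Several enzymes of this list are abundant in the proximal tubule, whose summed marker level was lower too. That sum includes Ass1 itself, with means of 3144 CPM healthy-labelled and 858 CPM ARF-labelled, so it is not separate from this list. The part of the proximal tubule in these counts was not tested.

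The genes whose profile over the 6 libraries was most like each of the 4 were found by the root mean square difference between log2 CPM profiles, scaled by TMM and centred on their mean. Nearest to Asns were Tnfrsf1a, a receptor of tumour necrosis factor (0.0349), the kinase gene Rps6ka3 (0.0493) and H6pd, an NADPH-producing enzyme of the endoplasmic reticulum (0.0692). Nearest to Gclc were Tmem183a (0.0389), Dnajc25 (0.0578) and Ahcyl2 (0.0589). Those of Gsta2 were 1700034J05Rik (0.151), the glutamate receptor gene Gria3 (0.184, read through 27 bases) and Slc22a4, a carrier of ergothioneine and carnitine (0.255). Slc7a11 had the least close neighbours, the metalloprotease gene Mmp19 (0.405), the complement receptor gene C5ar1 (0.414) and the phosphatase gene Dusp8 (0.456). None of these 12 genes is on the pathway lists. Likeness over 2 groups of 3 libraries mostly reflects a similar difference between the groups, and was not tested.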

How the data were processed

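Libraries from 1 microgram of Trizol-extracted kidney RNA were made with a TruSeq kit, per the labels' protocols. The authors deposited fragment counts per row, made with featureCounts 2.0.1 without strand or multi-alignment options, per the file headers. Bowtie 0.12.2 and the build mm9 are listed, without a role, in the submitters' processing notes; which aligner fed the counting is not stated in the headers or labels.

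Rows (53546) were intersected with GRCm38 exons (GENCODE M21 basic, protein-coding and long non-coding genes) with bedtools 2.31.1. A gene received a row when 0.9 or more of the exon bases under it, and no fewer than 25, were that gene's; 12401 rows gave 9519 genes and 63.0% of counts. Genes were tested with edgeR 4.0.16 (R 4.3.3): TMM, filterByExpr, totals over all rows, quasi-likelihood test, group as the only term, Benjamini-Hochberg threshold 0.05, two-sided. SE is the log2 fold change divided by the square root of F. The fitting script was tested on simulated data. Poisson 95% intervals cover counting error only. Alternatives used DESeq2 1.42.0 and other scalings, filters and row limits, a replicate block, and each library left out.

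The 4 genes and all lists were chosen with earlier results of these data known. Named are, per pathway list, up to 3 called genes with the largest change in each direction, the 3 nearest profiles per gene, and uncalled genes chosen after their values were seen.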

Additional observations from a re-analysis of the deposited data

How the results depend on the processing

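Across 15 alternative fits the 4 genes kept their direction. Slc7a11 and Asns were called in all 15, and Gsta2 in each of the 14 that could include it, since rows of at least 100 exon bases leave it out. Gclc was not called with scaling by total count (log2 fold change -0.24) or without ARF-labelled replicate 1; over the fits leaving out 1 library it ranged from -0.51 to -0.35. The cause was not tested. Scaling by total count moved the median of all genes to 0.19 and the calls to 1749 higher and 1013 lower (63.3% higher), against 1319 and 1305 (50.3%) with TMM. The log2 ratio of Gsta2 to Asns changed sign when 1 library was left out, from -0.55 to 0.17; with the other pairs the sign held, though the 3 pairs with Slc7a11 moved by over 1.5 times on the fold scale without ARF-labelled replicate 1. Replicate numbers in the titles pair nothing by the labels, and deviations of same-numbered libraries from their group means correlated at -0.07, -0.22 and -0.29. With a replicate block 1135 genes were higher and 1153 lower, and Slc7a11 had -2.79, Gclc -0.42, Gsta2 -1.67 and Asns -1.60, all called. In the block, the ratio tests could not go below an exact permutation p of 0.25. Fos, among the immediate early genes, had -3.02, and -4.80 without ARF-labelled replicate 1. Depth limits Slc7a11 in ARF-labelled replicate 1 most, with 7 counts, and Gsta1, which could not be tested.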
